A study of Mus musculus with 24 samples.

Results

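Visual cortex RNA of mice that received psilocybin and were then placed in light was compared with that of mice that received phosphate-buffered saline (PBS) and stayed in the dark. The comparison takes 12 of the 24 mice sequenced, 6 psilocybin-light mice (libraries 19 to 24) and 6 dark mice (libraries 1 to 6), with 1 library per mouse. All were male C57BL/6J mice, 8 weeks old and housed on a reversed light cycle, and the experiment took place in their dark phase. Psilocybin was injected intraperitoneally at 5 mg/kg, dark mice received PBS by the same route, and all mice were killed 2.5 h later. The other 12 mice, 6 given PBS and placed in light (light mice) and 6 that stayed dark after psilocybin (psilocybin-dark mice), are used only to show where the psilocybin-light mice differ from them.

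The light exposure of each library follows the headings of the count table that supplements the study. For all 24 libraries the sample labels name the same drug but reverse light and dark. They would name libraries 19 to 24 Psi-Dark and libraries 1 to 6 PBS-Light, so every value below is a difference between the same libraries under either naming. Which of the sources is right was not tested. Drug and light differ together between the 2 groups, so in this comparison alone their effects cannot be told apart.

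Light after a period of darkness drives neurons of the visual cortex, and neuronal activity induces a rapid wave of early-response transcription factors, followed by effector genes that act at synapses. Psilocybin is converted in the body to psilocin, an agonist of serotonin receptors, among them the 2A receptor of cortical neurons. Calcium and MAP kinase signalling carry such signals to the nucleus, where CREB and serum response factor act on promoters of early-response genes.

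The 12 libraries held between 14558979 and 17566718 counts. Some dark libraries stood apart in genes of other brain regions. The summed normalized count of 9 cerebellar markers was 20976 in dark mouse 1 and 45704 in dark mouse 6, against 797.7 to 1348 in dark mice 2 to 5 and 312.2 to 1083 in the psilocybin-light mice. The sum of 10 hippocampal markers lay between 2657 and 7452 in the dark mice and between 946.5 and 1663 in the psilocybin-light mice. This second list did not overlap between the groups (exact permutation test of 6 mice against 6, two-sided, p = 0.00216, the smallest that design allows, adjusted p = 0.0115 over 16 marker lists). In bulk tissue, fewer cells of a type and less RNA per cell cannot be told apart, and some results below are therefore also given without dark mice 1 and 6, without dark mice 2 to 5, or with the mean log2 level of the hippocampal markers as a covariate. For single genes and gene lists that covariate was added after the data were seen. The visual cortex label was compared with 8 general markers of cortical glutamatergic neurons, whose sum lay between 122245 and 149342 in psilocybin-light mice and between 48084 and 145404 in dark mice, with mice 1 and 6 lowest.

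**Figure D1:**
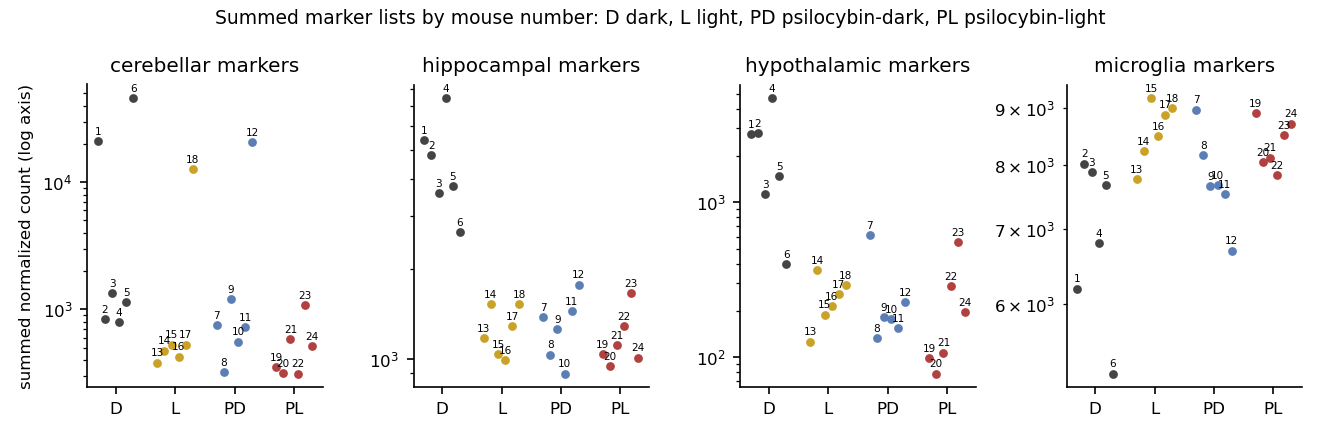
Summed normalized counts (log axes) of cerebellar, hippocampal, hypothalamic and microglia marker lists in each of the 24 mice, with the mouse number above each point. Dark mice 1 and 6, light mouse 18 and psilocybin-dark mouse 12 stand above all other mice in the cerebellar sum, and the 6 dark mice lie above the other 18 in the hippocampal sum.

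In the quasi-likelihood test of edgeR, 5551 of 14464 genes tested (38.4%) differed between psilocybin-light and dark mice at an adjusted p-value under 0.05. Of these, 2513 genes (17.4% of those tested) were higher and 3038 (21.0%) were lower in psilocybin-light mice. The median absolute log2 fold change of the called genes was 0.40, and 905 genes (6.26%) passed the threshold with a change of at least 1 on the log2 scale, 325 higher and 580 lower. In 2290 genes (15.8%), all 6 psilocybin-light values lay on 1 side of all 6 dark values. The mice of the dark group differed more among themselves than those of the psilocybin-light group, with a larger SD of the log2 level in 11632 genes (80.4%). Without dark mice 1 and 6, 6193 genes were called, 3110 of them higher. With the mean log2 level of the hippocampal markers as a covariate, 890 genes were called, 281 higher and 609 lower. The sum of these markers did not overlap between the groups, so the covariate can also take up differences between them.

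**Figure D2:**
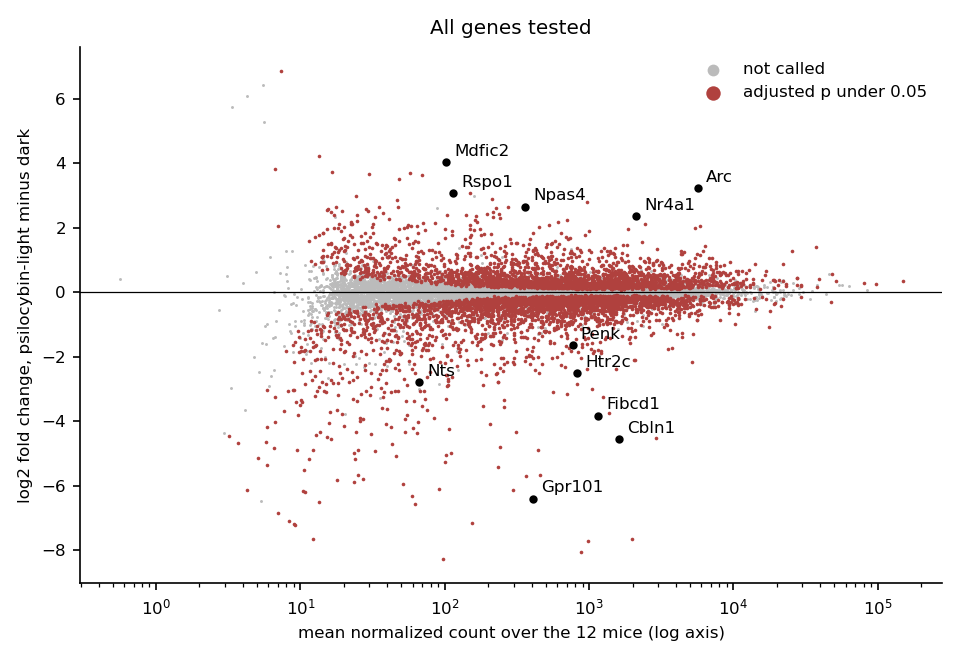
Log2 fold change of each of the 14464 genes tested (psilocybin-light minus dark) against its mean normalized count over the 12 mice on a log axis, with genes at an adjusted p-value under 0.05 in red and the other genes in grey. Falls reach further than rises, and Arc combines a high level with a log2 fold change of 3.23.

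Early-response transcription factors were mostly higher in psilocybin-light mice. Of 23 members, 17 rose, 2 fell and 4 did not pass the test, with a median log2 fold change of 0.91 against −0.02 over all genes tested. These lists, like the others below, are read against the 17.4% of all genes called higher and the 21.0% called lower.

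Npas4, a transcription factor induced by calcium entry in neurons, had normalized counts from 36.7 to 144.7 in dark mice (median 107.4) and from 347.5 to 1037 in psilocybin-light mice (median 527.3). The groups did not overlap, and the log2 fold change was 2.65 (standard error, SE, 0.29, adjusted p = 8.47e-07 in edgeR). Nr4a1, a nuclear receptor that responds to activity, ranged from 280.9 to 1018 in dark mice (median 783.1) and from 1664 to 5866 in psilocybin-light mice (median 3344). Its log2 fold change was 2.35 (SE 0.33, adjusted p = 1.28e-05 in edgeR), again without overlap. Fos, a subunit of the AP-1 factor, lay between 166.4 and 421.8 in dark mice (median 341.4) and between 720.2 and 1604 in psilocybin-light mice (median 942.5), a log2 fold change of 1.72 (SE 0.23). Its partner Junb rose by 1.48 on the log2 scale (SE 0.25), from 458.7 to 1398 in dark mice (median 1050) to between 1891 and 3957 in psilocybin-light mice (median 2518). Among the dark mice, mice 1 and 6 held the lowest Npas4 and Junb values.

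The 4 members of the Egr family of zinc-finger factors all rose without overlap. Egr1 ranged from 902.6 to 3405 in dark mice and from 6751 to 11721 in psilocybin-light mice, a change of 2.05 on the log2 scale (SE 0.23, adjusted p = 9.84e-07 in edgeR). The changes were 2.43 for Egr2 (SE 0.45), 1.98 for Egr3 (SE 0.33) and 1.25 for Egr4 (SE 0.22), all on the log2 scale. Ier5 rose by 1.97 and Ier2 by 1.38 on that scale, and Klf10, Btg2 and Bhlhe40 rose by between 0.82 and 0.91, the first pair with overlap. Fosb, a longer-lived relative of Fos, rose by 0.83 (adjusted p = 0.0188 in edgeR), with its lowest psilocybin-light value of 489.5 inside the dark range of 126.1 to 547.0. In a fit of these 12 libraries alone, the Fosb change missed the threshold (0.84, adjusted p = 0.0909 in edgeR).

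A pair of early-response factors went the other way. Jun, the AP-1 subunit that pairs with Fos, had 1394 to 2468 normalized counts in dark mice (median 1895) and 868.7 to 1236 in psilocybin-light mice (median 1059), without overlap. It fell by 0.89 on the log2 scale (SE 0.15, adjusted p = 8.46e-05 in edgeR). Nr4a2, a nuclear receptor of the same family as Nr4a1, fell by 1.38 (SE 0.32, adjusted p = 0.00188 in edgeR), from a dark range of 551.1 to 3577 to between 509.2 and 874.4. The lowest dark value of Nr4a2, in mouse 1, lay within the psilocybin-light range. Without dark mice 2 to 5 its change did not pass (−0.86, adjusted p = 0.0893 in edgeR).

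The 250 bases before the transcription start of some of these genes are shown because the genes moved together and because their promoters hold copies of the cAMP response element, to which CREB binds. The sequences are from RefSeq (GRCm38.p6), 5′ to 3′ on the strand of the gene. Capitals mark TGACG, the short form of the element, on either strand. The windows are chr19:4989972-4990221 for Npas4 (minus strand), chr15:101266596-101266845 for Nr4a1 (plus strand), chr12:85473640-85473889 for Fos (plus strand), chr8:84978749-84978998 for Junb (minus strand) and chr17:26508473-26508722 for Dusp1 (minus strand), a MAP kinase phosphatase described below.
Npas4: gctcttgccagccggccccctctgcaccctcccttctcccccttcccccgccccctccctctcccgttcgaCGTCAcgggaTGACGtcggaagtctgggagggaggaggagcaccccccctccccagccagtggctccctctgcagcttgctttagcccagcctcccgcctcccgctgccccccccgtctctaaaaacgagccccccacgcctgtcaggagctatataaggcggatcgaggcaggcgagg
Nr4a1: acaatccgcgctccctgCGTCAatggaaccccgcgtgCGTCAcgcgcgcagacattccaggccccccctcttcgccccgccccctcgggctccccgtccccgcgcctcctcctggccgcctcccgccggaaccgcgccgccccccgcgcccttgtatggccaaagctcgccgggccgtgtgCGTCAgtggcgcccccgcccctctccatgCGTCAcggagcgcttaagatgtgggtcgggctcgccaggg
Fos: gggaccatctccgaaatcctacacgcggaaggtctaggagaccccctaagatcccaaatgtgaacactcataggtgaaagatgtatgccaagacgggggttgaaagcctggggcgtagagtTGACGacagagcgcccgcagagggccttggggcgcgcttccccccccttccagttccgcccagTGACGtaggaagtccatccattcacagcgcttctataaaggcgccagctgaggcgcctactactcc
Junb: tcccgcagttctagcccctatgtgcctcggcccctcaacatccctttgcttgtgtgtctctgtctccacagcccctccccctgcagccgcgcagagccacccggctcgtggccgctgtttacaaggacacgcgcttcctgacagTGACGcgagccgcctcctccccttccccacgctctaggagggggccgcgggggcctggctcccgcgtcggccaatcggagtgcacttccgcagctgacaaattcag
Dusp1: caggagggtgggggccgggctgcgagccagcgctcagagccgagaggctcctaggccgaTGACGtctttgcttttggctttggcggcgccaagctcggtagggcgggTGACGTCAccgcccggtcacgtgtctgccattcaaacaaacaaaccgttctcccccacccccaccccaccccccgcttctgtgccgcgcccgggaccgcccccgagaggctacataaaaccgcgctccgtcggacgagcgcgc
The short element occurred 2 times in the Npas4 window, 4 times in that of Nr4a1, 2 times in that of Fos, 1 time in that of Junb and 3 times in that of Dusp1. The window of Dusp1 also holds the full element, TGACGTCA, which contains the short form on both strands and so accounts for 2 of its 3 copies. Of 35 early-response factors, effectors and MAP kinase inhibitors that rose, 25 had a start in the promoter table, with 42 starts between them. The short element was present before 25 of these 42 starts (59.5%) and before 17.8% of all 32851 starts in the table. The full element was present before 5 of the 42 starts (11.9%), those of Arl4d, Arl5b, Btg2, Dusp1 and Maff, and before 1.55% of all starts. Starts of a gene can lie close together and share bases. A match describes the letters in the window and not binding. Only members of early-response lists that rose were counted, and all starts in the table include genes that were not tested. The higher share is therefore not separate evidence for the rises. List members that did not rise were not counted, and the part of the element in the rises was not tested.

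**Figure D3:**
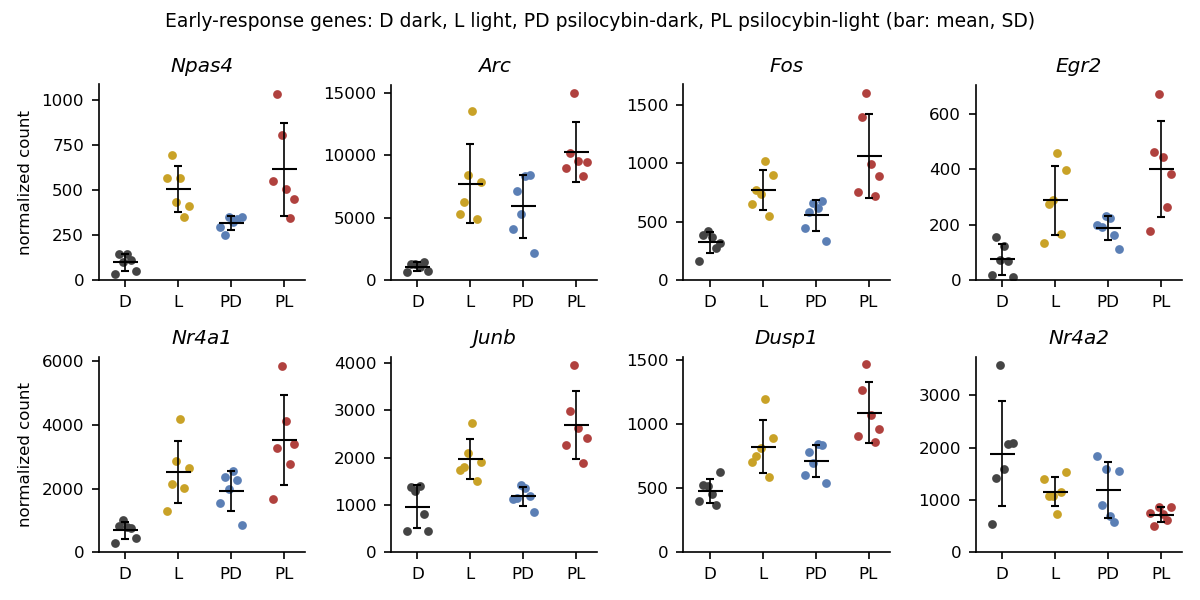
Normalized counts of 8 early-response genes in each mouse of the dark (D), light (L), psilocybin-dark (PD) and psilocybin-light (PL) groups, with the mean and SD of 6 mice as bars. In 7 of the genes every psilocybin-light mouse lies above every dark mouse, and Nr4a2 is highest in dark mice.

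Early-response effectors were also higher. Of 22 members, 14 rose and the other 8 did not pass the test, with a median log2 fold change of 0.71. Arc, which drives the removal of AMPA receptors from synapses, had normalized counts from 617.3 to 1454 in dark mice (median 1185) and from 8352 to 14940 in psilocybin-light mice (median 9517). Its log2 fold change of 3.23 (SE 0.31, adjusted p = 2e-07 in edgeR) was the largest rise of any gene with a mean of at least 1000 normalized counts and no overlap. Ccn1, a matrix protein, rose by 1.76 and Arl4d, a small GTPase, by 1.66 on the log2 scale. Nptx2, a secreted protein that clusters AMPA receptors, rose by 1.37 (SE 0.39), from a dark range of 128.8 to 1554 to between 1638 and 2736. Ptgs2, the inducible cyclooxygenase, rose by 1.33, and Homer1, a scaffold of the postsynaptic density, by 1.14, the last with overlap. Nptx2 did not pass in the fit of these 12 libraries alone (1.37, adjusted p = 0.0524 in edgeR).

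Inhibitors of MAP kinase signalling are themselves induced by it. Of 11 such genes, 4 rose without overlap between the groups, and 7 did not pass the test. The phosphatases Dusp14, Dusp6 and Dusp1 rose by 1.32, 1.27 and 1.18 on the log2 scale, and Spry2, an inhibitor of receptor tyrosine kinase signalling, by 0.58. Dusp1 lay between 369.9 and 623.2 normalized counts in dark mice (median 485.3) and between 857.1 and 1468 in psilocybin-light mice (median 1019).

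Without dark mice 1 and 6, 16 early-response factors, 15 effectors and 5 MAP kinase inhibitors were higher, and 4 of the factors were lower. The log2 fold changes were then 2.29 for Npas4, 3.00 for Arc and 1.56 for Fos. With the hippocampal covariate, 1 of the factors (Npas4, 2.42, adjusted p = 0.0143 in edgeR) and 2 of the effectors (Arc at 2.07 and Arl4d) were still called higher, and among the MAP kinase inhibitors none was called higher and 1 was called lower in edgeR. Fos then stood at 1.06 (adjusted p = 0.12) and Egr1 at 1.27 (adjusted p = 0.0555 in edgeR).

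The same genes were compared with the other groups. Against light mice, which share the light, none of the changes in Npas4 (0.29, adjusted p = 0.848), Arc (0.41, adjusted p = 0.74), Fos (0.46, adjusted p = 0.518) and Nr4a1 (0.48, adjusted p = 0.711) passed the edgeR test. Against psilocybin-dark mice, which share the drug, the fit gave a change of 0.95 for Npas4 (adjusted p = 0.0374), 0.94 for Fos (adjusted p = 0.0131) and 1.18 for Junb (adjusted p = 0.00594). Ier2, Btg2, Ccn1, Arl4d and Dusp1 also passed the test in that comparison, by between 0.57 and 1.00 on the log2 scale, whereas Arc (0.80, adjusted p = 0.106) and Egr1 (0.40, adjusted p = 0.328) did not. Junb had a mean of 1187 normalized counts in psilocybin-dark mice and 2687 in psilocybin-light mice. These comparisons share the psilocybin-light mice with the comparison against dark. Over all genes, 88 (0.608%) were called against light mice, 8 of them higher, a count that ran from 9 to 155 when 1 library was left out, and 923 (6.38%) against psilocybin-dark mice, 376 of them higher.

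Of 13 secreted proteins regulated by activity, 4 rose and 1 fell, with a median log2 fold change of 0.23. Nrn1, which promotes neurite growth, rose by 0.73 (SE 0.13) and Vgf, a granin-like precursor of neuropeptides, by 0.72 (SE 0.19), both without overlap. Scg2 rose by 0.50 (adjusted p = 0.0344 in edgeR), a call that was lost when any of dark mice 2, 3 or 6 or psilocybin-light mice 23 or 24 was left out. Nptx1 rose by 0.31. Bdnf, the neurotrophin, had 381.1 to 760.2 normalized counts in dark mice and 616.6 to 1012 in psilocybin-light mice and did not pass the test (0.38, adjusted p = 0.0592 in edgeR). Gdf10 fell by 2.02, and its dark values of 1078 in mouse 1 and 1724 in mouse 6 stood above 168.2 to 199.4 in the other dark mice. Without these mice its change was −0.33 (adjusted p = 0.655).

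Neuropeptides moved in both directions. Of 12 tested, 5 rose, 2 fell and 5 did not pass. Pdyn, the dynorphin precursor, had 26.5 to 184.0 normalized counts in dark mice (median 65.5) and 354.3 to 554.3 in psilocybin-light mice (median 481.2), a change of 2.63 on the log2 scale (SE 0.29, adjusted p = 8.56e-07 in edgeR). Crh, corticotropin-releasing hormone, rose by 1.53, and Npy, Vip and Cck, which mark classes of interneurons, by 1.27, 1.20 and 0.75, all 4 without overlap. Penk, the enkephalin precursor, ranged from 660.8 to 1501 in dark mice (median 1187) and from 313.7 to 519.3 in psilocybin-light mice (median 351.9). It fell by 1.65 on the log2 scale (SE 0.22, adjusted p = 5.76e-06 in edgeR). Nts, neurotensin, fell by 2.78 (SE 0.62), from 30.2 to 231.9 in dark mice to between 0 and 43.8. Sst, the peptide of another interneuron class, had a change of 0.06 (adjusted p = 0.845).

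Of the 14 serotonin receptor genes, 12 were tested, and 2 were higher and 6 lower in psilocybin-light mice, with a median log2 fold change of −0.65. These counts were 2 and 7 without dark mice 1 and 6, and 6 and 5 without dark mice 2 to 5. Htr2a, the receptor held to carry the perceptual effects of psilocybin, had 223.0 to 684.9 normalized counts in dark mice (median 418.1) and 405.7 to 654.3 in psilocybin-light mice (median 527.5). These ranges overlapped, and the change of 0.33 (SE 0.21) did not pass the test (adjusted p = 0.221 in edgeR). It passed without dark mouse 3 (0.52, adjusted p = 0.0384), which held the highest dark value. The Htr2a change also passed without dark mice 2 to 5 (1.02, adjusted p = 0.00218 in edgeR), and was 0.09 without dark mice 1 and 6. Htr2c, which is also expressed in deeper brain regions, fell by 2.51 (SE 0.36, adjusted p = 1.65e-05 in edgeR), from a dark median of 1489 to 182.4. Its lowest dark value, 337.2 in mouse 6, lay within the psilocybin-light range of 145.0 to 466.9. Htr1a, an inhibitory receptor, fell by 1.11 and Htr1b, which sits on axon terminals, by 0.93, both without overlap. Htr1f rose by 1.37, from 9.14 to 27.9 in dark mice to between 28.1 and 66.6 in psilocybin-light mice. With the hippocampal covariate the calls of all 8 receptors were lost in edgeR. Htr1a and Htr2c are also transcribed in the hippocampus, and the part of its markers in these changes was not tested.

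Receptors for glutamate and GABA changed in both directions. Of 15 ionotropic glutamate receptor subunits, 1 rose and 5 fell, and without dark mice 2 to 5 the counts were 6 and 6. Gria1, an AMPA receptor subunit, lay between 8810 and 13328 in dark mice (median 9824) and between 5516 and 6064 in psilocybin-light mice (median 5689), a change of −0.86 on the log2 scale (SE 0.09, adjusted p = 4.92e-07 in edgeR). Grin3a, an NMDA receptor subunit, fell by 1.30, and Grin1, the obligatory NMDA subunit, rose by 0.39, also without overlap. Of 14 GABA-A receptor subunits, 1 rose and 6 fell. These counts were 4 and 7 without dark mice 1 and 6, and 4 and 5 without dark mice 2 to 5. With the hippocampal covariate, 3 glutamate receptor subunits and 1 GABA-A subunit were called, all lower. Gabra5, a subunit of extrasynaptic receptors, fell by 1.04 without overlap, and Gabra4 rose by 0.52. Gabrq fell by 3.53, with 509.9 normalized counts in dark mouse 1, 15.5 to 99.7 in the other dark mice and 4.46 to 17.5 in psilocybin-light mice.

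Markers of cortical cell classes were examined next. Of 8 general markers of glutamatergic neurons, 3 rose, among them Emx1 by 1.49 and Nrgn by 1.27 on the log2 scale, and 5 did not pass. Of 13 upper-layer markers, 7 rose and 2 fell. Rspo1, a secreted activator of Wnt signalling, had 5.48 to 59.9 normalized counts in dark mice (median 15) and 154.3 to 303.0 in psilocybin-light mice (median 186.6), a log2 fold change of 3.08 (SE 0.45). Cux2, Scnn1a and Rorb, markers of the upper and middle layers of sensory cortex, rose by 1.20, 1.14 and 0.73. The Rorb change did not pass without dark mice 1 and 6 (0.55, adjusted p = 0.0509 in edgeR). Of 17 deep-layer markers tested, 5 rose, Tbr1 and Foxp2 among them, and 5 fell, Etv1 and Bcl11b among them.

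Of 30 GABAergic markers, 4 rose, 10 fell and 16 did not pass, and the summed level was lower in psilocybin-light mice without overlap (30907 to 33438 against 34878 to 50638, exact permutation p = 0.00216, adjusted p = 0.0115). The mean log2 level of the members did not pass (ratio 0.89, adjusted p = 0.117). The rise was in Lamp5, Crh, Npy and Vip, of which Lamp5 went from 384.7 to 1584 in dark mice to between 2969 and 4985 (log2 fold change 2.10, standard error 0.24). Nos1, the neuronal nitric oxide synthase, fell by 2.11 (SE 0.23), from 2422 to 4442 in dark mice (median 3128) to between 542.5 and 1073 (median 764.5). Calb2 (calretinin) fell by 2.99, with 3799 and 4813 in dark mice 1 and 6, and did not pass without them (−1.45, adjusted p = 0.0957 in edgeR). Gad2, a GABA-synthesizing enzyme, fell by 0.31, whereas Gad1 (−0.08), Slc32a1 (−0.19) and Pvalb (−0.83) did not pass the test. With the hippocampal covariate, 3 of the 30 markers were called, all lower. Without dark mice 1 and 6, 5 were higher and 14 lower, and without dark mice 2 to 5, 13 were higher and 14 lower.

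Of 11 microglia markers, 6 rose, Trem2 and Ctss by 0.46 each without overlap, and the summed level was 7828 to 8897 in psilocybin-light mice and 5189 to 8016 in dark mice (exact permutation p = 0.00866, adjusted p = 0.0198). The lowest dark sums, 5189 and 6189, were those of mice 6 and 1, and without them the sum no longer passed (ratio of means 1.1, adjusted p = 0.0533). Of 12 astrocyte markers, 1 rose (Aldh1l1, 0.37) and 4 fell (Aqp4, Gja1, Sox9 and Slc1a3). Gja1, the gap junction protein connexin 43, had 3738 to 4560 normalized counts in dark mice and 1921 to 2807 in psilocybin-light mice, a log2 fold change of −0.85, and Sox9, a transcription factor of astrocytes, fell by 0.73. Both were also lower than in light mice (−0.49, adjusted p = 0.0133, and −0.57, adjusted p = 0.0118) and in psilocybin-dark mice (−0.48, adjusted p = 0.00281, and −0.69, adjusted p = 0.00086 in edgeR). The astrocyte sum was 88278 to 102835 in psilocybin-light and 102669 to 112853 in dark mice (exact permutation p = 0.00433, adjusted p = 0.0139). The sum of the oligodendrocyte and myelin genes did not pass the test (exact permutation p = 0.591, adjusted p = 0.781), with 143912 in dark mouse 1 against 24793 to 61603 in the other dark mice.

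**Figure D4:**
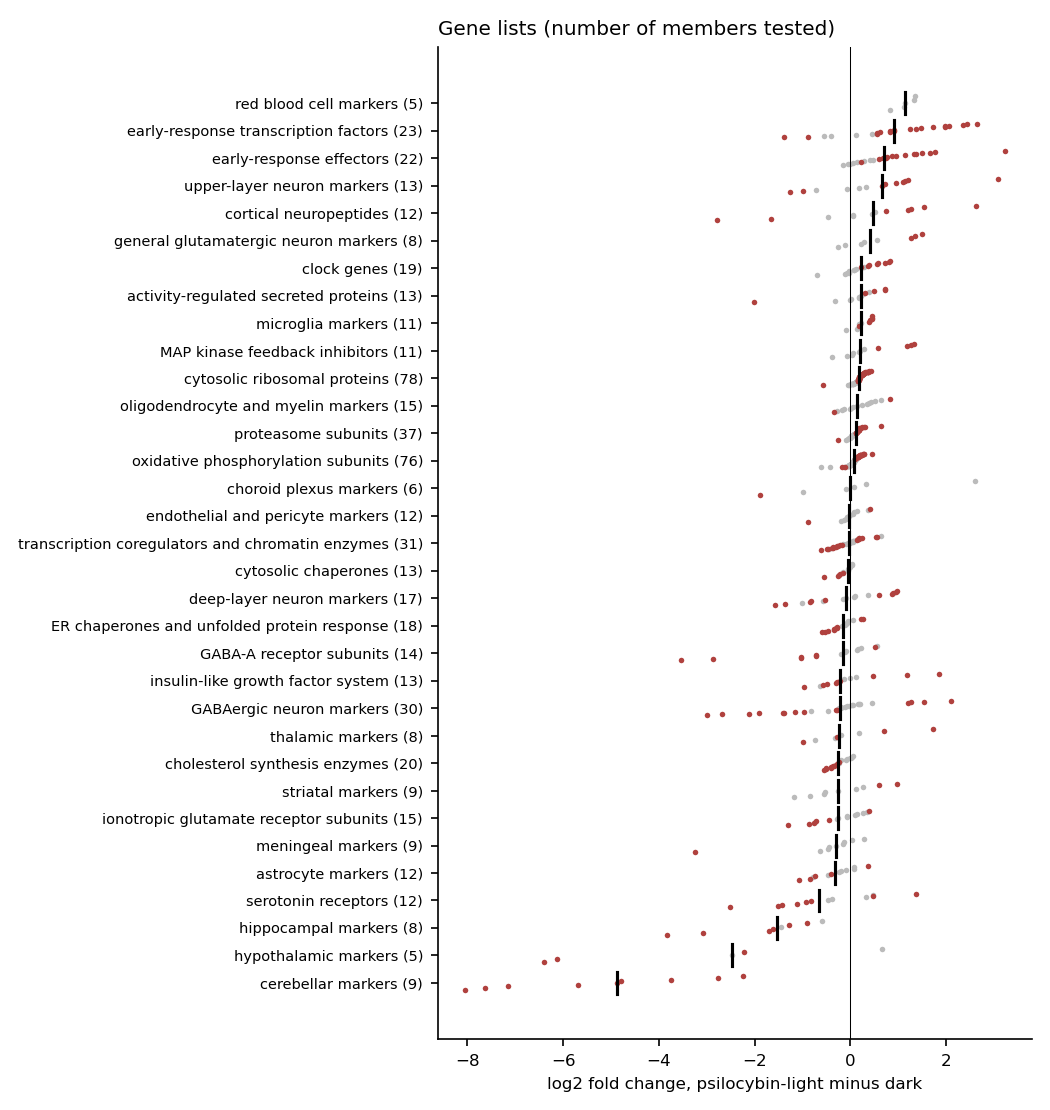
Log2 fold change (psilocybin-light minus dark) of each tested member of the gene lists, ordered by list median (black bar), with members at an adjusted p-value under 0.05 in red and the others in grey, and the number tested in parentheses. Early-response factors and effectors lie near the top, with medians of 0.91 and 0.71, and cerebellar, hypothalamic and hippocampal markers at the bottom.

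Most tested markers of the cerebellum, hippocampus and hypothalamus were lower in psilocybin-light mice. All 9 cerebellar markers were called lower in edgeR, with a median log2 fold change of −4.88, and all 9 calls were lost without dark mice 1 and 6. Gabra6, a subunit of cerebellar granule cells, had 3068 and 7131 normalized counts in dark mice 1 and 6, 13.3 to 105.7 in the other dark mice and 0 to 30.1 in psilocybin-light mice. Cbln1, a synapse organizer of granule cells, fell by 4.56 and did not pass without these mice (−2.26, adjusted p = 0.0931 in edgeR). Of 8 hippocampal markers tested, 6 fell. Fibcd1, a marker of hippocampal CA1 neurons, had 321.7 to 4785 normalized counts in dark mice (median 1878) and 126.6 to 174.7 in psilocybin-light mice (median 158.6), a change of −3.83 on the log2 scale (SE 0.42, adjusted p = 7.39e-07 in edgeR). It was lowest in dark mouse 6 and fell by 4.14 without dark mice 1 and 6. Of 5 hypothalamic markers tested, 3 fell and 2 did not pass. The sum of 10 such markers lay between 397.5 and 4687 in dark mice and between 78.4 and 554.2 in psilocybin-light mice. These sums overlapped (exact permutation p = 0.00433, adjusted p = 0.0139). Gpr101, an orphan receptor of the hypothalamus and amygdala, had 168.1 to 1993 in dark mice (median 640.2) and 0 to 28.5 in psilocybin-light mice (median 7.32), a log2 fold change of −6.40 (SE 1.08). Trh, thyrotropin-releasing hormone, fell by 6.12. Dcn, a matrix proteoglycan from the list of meningeal markers below, fell by 3.25. In light and psilocybin-dark mice the means of Fibcd1 were 189.2 and 166.0. Trh ranged from 6.47 to 1637 in dark mice, overlapping the psilocybin-light range of 4.85 to 12.4.

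The summed level of striatal markers was 3391 to 4453 in psilocybin-light mice and 2005 to 3236 in dark mice, without overlap (exact permutation p = 0.00216, adjusted p = 0.0115), although 2 of 9 members rose and their median log2 fold change was −0.26. Of 8 thalamic markers, 2 rose and 2 fell. Both falls were lost when dark mouse 1 or 6, or any of psilocybin-light mice 19, 20, 22 or 24, was left out. Of 9 meningeal markers, 1 fell (Dcn). Their summed level was 1263 to 3939 in psilocybin-light mice (mean 2346) and 2717 to 6747 in dark mice (mean 4568), with overlap (exact permutation p = 0.0216, adjusted p = 0.0423). The mean log2 level of these members did not pass (ratio 0.639, adjusted p = 0.15), nor did the sum when any of dark mice 2 to 5 or psilocybin-light mice 19, 20, 22, 23 or 24 was left out (ratio 0.46 to 0.568). Of 6 choroid plexus markers, 1 fell. Among 12 endothelial and pericyte markers 1 rose and 1 fell. The count for the 15 oligodendrocyte and myelin markers depended on single libraries. With all mice 1 rose and 1 fell, without dark mouse 1 there were 9 higher and 1 lower, without dark mice 1 and 6 there were 10 higher and 2 lower, and without any of dark mice 2 to 5 or psilocybin-light mice 19, 20 or 22 the calls of both were lost in edgeR. The 5 red blood cell markers did not pass the test, with sums from 623.1 to 6276 in psilocybin-light mice and from 357.3 to 2007 in dark mice.

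The largest rises without overlap included genes with immune roles, and whether immune cells differed was not tested with these genes. Trbc2, a T cell receptor segment, had 0.914 to 35.3 normalized counts in dark mice and 76.7 to 126.0 in psilocybin-light mice, a log2 fold change of 3.71 (SE 0.49). Ighg2c, an immunoglobulin heavy chain segment, rose by 3.66, from 0 to 10.2 to between 43.9 and 70.1, and Ackr2, a scavenging chemokine receptor, and Cd7, a lymphocyte surface protein, rose by 3.50 and 2.98. In light mice the means of these 4 genes were 108.5, 43.3, 76.6 and 30.4. Mdfic2 rose by 4.04 (SE 0.39), from 2.74 to 37.2 in dark mice to between 160.1 and 227.5, and the export factor homologue Nxf7 by 4.22. Robo3, an axon guidance receptor, rose by 3.08 and Myl4, a myosin light chain, by 2.89.

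Another set of genes had the smallest p-values. Etnk2, an ethanolamine kinase, had 37.5 to 88.3 normalized counts in dark mice and 228.1 to 310.9 in psilocybin-light mice (2.36, standard error 0.18, adjusted p = 2.41e-08 in edgeR). Gfpt1, which starts the synthesis of sugar nucleotides for glycosylation, lay between 1501 and 1608 in dark mice and between 1144 and 1209 in psilocybin-light mice, a fall of 0.38 with a standard error of 0.03. Mapk11, a p38 MAP kinase, rose by 1.65, Per3 by 0.80 and the homeobox gene Meis3 by 0.62. The adhesion molecules Ncam1 and Lsamp fell by 0.88 and 0.86, and Gmps, an enzyme of guanine nucleotide synthesis, by 0.65. Among genes with high counts, Dkk3, a secreted Wnt modulator, rose by 1.42 and Cabp1, a calcium sensor, by 1.57, whereas the calcium-binding proteins Hpcal1 and Doc2b fell by 2.39 and 1.89. None of these groups overlapped.

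Regulators of transcription moved by small amounts. Of 31 coregulators and chromatin enzymes, 7 were higher and 11 lower. Crebbp, Top1, Hdac5, Igf1r, Sdhb and Psmb1 are named by the study from these same libraries, so their direction here is not independent evidence. Crebbp, the acetyltransferase that binds CREB, had 850.7 to 1080 normalized counts in dark mice (median 934.0) and 545.7 to 649.4 in psilocybin-light mice (median 630.4), a change of −0.61 on the log2 scale (SE 0.11, adjusted p = 0.000211 in edgeR). It was also lower than in light mice (−0.56, adjusted p = 0.0266) and in psilocybin-dark mice (−0.67, adjusted p = 0.00145). Top1, topoisomerase I, fell by 0.29 (SE 0.05), from 1820 to 2203 to between 1582 and 1699, and by 0.27 and 0.30 against light and psilocybin-dark mice. Hdac5, a histone deacetylase that responds to activity, changed by −0.18 (adjusted p = 0.0235 in edgeR), with overlap, and lost the call without dark mouse 3 (−0.12, adjusted p = 0.0743) and without psilocybin-light mouse 20 or 22. Crtc3, a CREB coactivator, fell by 0.49 and Hdac10 rose by 0.55, both without overlap. Sdhb, a subunit of mitochondrial complex II, rose by 0.09 and Psmb1, a proteasome subunit, by 0.18, both with overlap. The Sdhb call was lost without dark mouse 2 (0.08, adjusted p = 0.0602). Against light and psilocybin-dark mice, Hdac5 changed by −0.27 and −0.21 and Sdhb by 0.14 and 0.12, and these changes passed the test. Igf1r and Psmb1, in contrast, missed the threshold against light mice, psilocybin-dark mice or both.

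**Figure D5:**
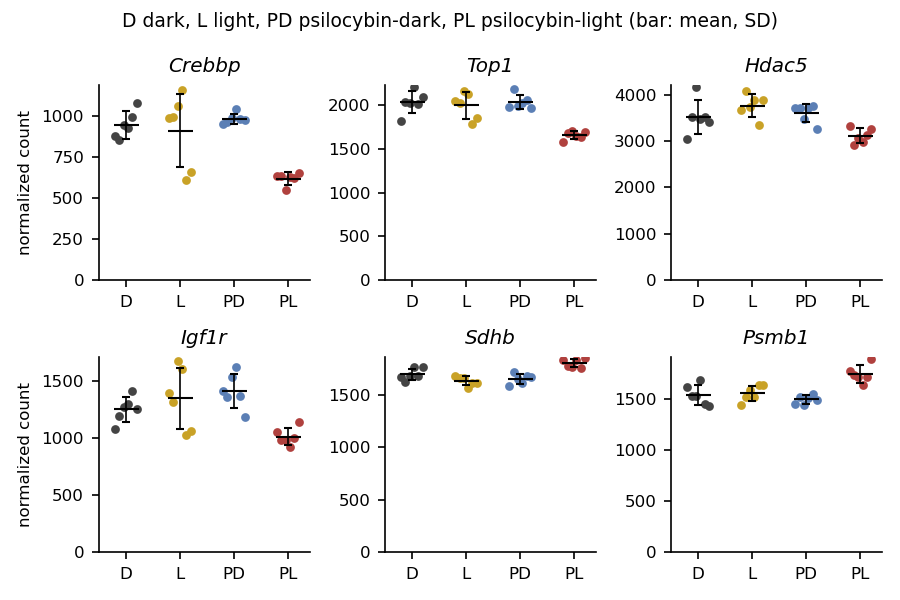
Normalized counts of Crebbp, Top1, Hdac5, Igf1r, Sdhb and Psmb1 in each mouse of the dark (D), light (L), psilocybin-dark (PD) and psilocybin-light (PL) groups, with the mean and SD of 6 mice as bars. The psilocybin-light mice are lowest on average in the first 4 genes and highest in the last 2, and for Crebbp a pair of light mice lies close to them.

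In the insulin-like growth factor system, 3 of 13 genes rose and 6 fell. Igf1r, the receptor, had 1079 to 1414 in dark mice (median 1263) and 919.0 to 1146 in psilocybin-light mice (median 993.5), a change of −0.30 on the log2 scale (SE 0.10, adjusted p = 0.0237 in edgeR). The call was lost without dark mouse 5 (−0.27, adjusted p = 0.0552) and without psilocybin-light mouse 20 or 22. Igf1 itself changed by −0.01. The binding proteins Igfbp6 and Igfbp4 rose by 1.85 and 1.18, and Igfbp3 fell by 0.97, all without overlap. Irs1, the adaptor of the receptor, fell by 0.58, and by 0.59 against psilocybin-dark mice (adjusted p = 0.00747 in edgeR).

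Genes of protein synthesis and turnover shifted by small amounts. Of 78 cytosolic ribosomal proteins, 53 rose and 1 fell, with a median log2 fold change of 0.19. The rises included Rpl12 at 0.44 and Rpl31 at 0.39, both without overlap, and the fall was in Rps4l. Of 37 proteasome subunits, 17 rose, Psmb10 by 0.64 and Psma7 by 0.31, and 1 fell (median 0.12). Of 76 subunits of oxidative phosphorylation, 19 rose, Ndufb4 by 0.45 and Cox8a by 0.29, and 2 fell (median 0.08). Without dark mice 1 and 6, 36 of the 76 were higher and none lower in edgeR, and without dark mice 2 to 5, 8 were higher and 10 lower. With the hippocampal covariate, 29 ribosomal, 3 proteasome and 1 oxidative phosphorylation genes were called higher.

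The share of genes called lower rose with exon length, from 13.2% in the fifth of genes with the shortest summed exons (109 to 3600 bases) to 31.3% in the fifth with the longest (10193 to 123193 bases). The median log2 fold change went from 0.04 to −0.09 over the same range. The ribosomal and mitochondrial genes have short transcripts, and the part of length in their changes was not tested.

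Genes of protein folding and cholesterol synthesis were mostly lower where they changed. Of 18 genes of endoplasmic reticulum chaperones and the unfolded protein response, 8 fell and 2 rose. Pdia4, a disulfide isomerase, had 744.8 to 1066 normalized counts in dark mice (median 1020) and 616.3 to 707.5 in psilocybin-light mice (median 631.3), a change of −0.59 on the log2 scale (SE 0.10, adjusted p = 4.64e-05 in edgeR). It was also lower than in light mice by 0.66 (adjusted p = 0.00328) and than in psilocybin-dark mice by 0.49 (adjusted p = 0.00343). Canx, calnexin, fell by 0.47 against dark, and Hspa5, the main chaperone of this compartment, by 0.34. Of 13 cytosolic chaperones, 5 fell. The transcription factors Atf4 and Ddit3 rose, by 0.22 and 0.27. Of 20 genes of cholesterol metabolism, 10 fell, among them Sqle, an early enzyme of sterol synthesis, by 0.56 and Dhcr7, a late one, by 0.50. Without dark mice 2 to 5, 3 cholesterol genes were higher and 8 lower, and 2 cytosolic chaperones were higher and 3 lower. The endoplasmic reticulum list then had 5 genes lower and none higher.

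Of 19 clock genes, 8 rose and 11 did not pass the test, with a median log2 fold change of 0.23. Per1 and Bhlhe40 are also among the early-response factors above, and Rorb among the upper-layer markers. Per3 had 280.4 to 346.2 normalized counts in dark mice and 498.7 to 624.2 in psilocybin-light mice (0.80, standard error 0.07). Per1, which light and CREB induce in many tissues, rose by 0.55 with overlap, and Per2 (0.28) did not pass. Hlf and Dbp, output factors of the clock, rose by 0.58 and 0.38, and Bmal1 (0.08), Clock (−0.07) and Nr1d1 (−0.11), parts of the core loop, did not pass. Dbp was also higher than in psilocybin-dark mice (0.60, adjusted p = 0.0054 in edgeR), with a mean of 720.2 against 476.6 normalized counts. Some clock genes were called lower under other choices, with 6 higher and 1 lower without dark mice 1 and 6, 9 higher and 2 lower without dark mice 2 to 5, and 1 of each with the hippocampal covariate.

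Other lists also had fewer calls with that covariate. The number called went from 7 to 1 for neuropeptides, from 9 to 1 for upper-layer markers, from 10 to 1 for cholesterol metabolism and from 10 to 2 for endoplasmic reticulum chaperones and the unfolded protein response. The calls of all 10 deep-layer markers and all 3 general markers of glutamatergic neurons were lost in edgeR. Among the coregulators and chromatin enzymes, 2 were called higher and 7 lower.

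Under the names the sample labels give, light with psilocybin would be libraries 7 to 12 and dark with PBS libraries 13 to 18. Between those libraries, 66 of 14464 genes (0.456%) were called, 28 of them higher in libraries 7 to 12.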

How the data were processed

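Poly-A RNA of mouse visual cortex was sequenced by the authors, with 1 library per mouse. Per the study's methods, reads were trimmed with cutadapt, those under 30 bases dropped, and the rest aligned with STAR and counted per gene with htseq-count. The methods name the genome GRCm39 and the submitters' processing notes mm10. The strand setting is not given in the sources used here, so genes and their antisense partners cannot be told apart. The deposited values are raw read counts per gene, not normalized, for 55414 genes. Symbols and positions are from the reference annotation.

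Counts of all 24 libraries were fitted together in edgeR 4.0.16 (R 4.3.3) with 1 term per group, TMM scaling and the quasi-likelihood test, on 14464 genes whose highest count reached 30, and p-values were adjusted by Benjamini-Hochberg over these genes. Normalized counts take 16058300, the mean effective library size, as their common depth. Fold changes are the log2 values of the edgeR fit. A count of 2 was added to normalized counts only where log2 levels were taken, as for their SD and for mean log2 levels of markers. Marker sums were compared by an exact two-sided permutation test. The 12 libraries held 14558979 to 17566718 counts, so genes with low counts are measured least precisely. P-values of edgeR set a difference against the spread between mice, which was estimated from all 24 libraries together.

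Genes named were those the study discusses, those with the largest or most certain changes (up to 12 or 10 per direction), and from each gene list up to 4 members with the largest called changes. All called members of the early-response, inhibitor, secreted, neuropeptide and serotonin receptor lists qualified, with Htr2a. Further list members, such as Bdnf, Sst, Grin1, Gad2 and the clock genes, were chosen after their values were seen. Some genes the rule gave are not reported here. Groups followed the headings of the study's count table. The members and lists were chosen with earlier results of these data known. Alternatives were DESeq2 1.42.0, its size factors, other filters, fitting only the mice compared, leaving out libraries, marker covariates and 1 surrogate variable (sva 3.50.0). The script of the test was tested on simulated data.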

Additional observations from a re-analysis of the deposited data

Results flagged for a closer look

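Single mice stood apart in 31 of 266 groups of 6 mice screened, over the genes named and the marker sums. A mouse was taken to stand apart where its gap to the nearest of the others, divided by the range of the group, exceeded 0.625. For independent groups of normally distributed values, chance gives about 1 in 20 such groups. The groups screened share the same mice, and whether their counts are normally distributed was not tested, so that rate is only a rough guide. Values are normalized counts, with that of the nearest mouse in parentheses.

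Psilocybin-light mouse 23 was high in Aqp4 at 2398 (1656), Calb2 at 389.2 (232.7), Gabra6 at 30.1 (3.22), Gja1 at 2807 (2149), Lsamp at 4634 (4025) and Penk at 519.3 (366.2). Its sums of thalamic and cerebellar markers were 3600 (1616) and 1083 (579.6). Psilocybin-light mouse 21 was high in Arc at 14940 (10187) and Igfbp6 at 1334 (995.5) and low in Crebbp at 545.7 (621.2). Psilocybin-light mouse 19 was high in Arl4d at 720.3 (595.2), Trem2 at 218.5 (190.2), the choroid plexus sum at 977.8 (259.2) and the red blood cell sum at 6276 (1861). Psilocybin-light mouse 22 was high in Gpr101 at 28.5 (9.71) and Robo3 at 375.7 (267.9) and low in Irs1 at 113.9 (140.5).

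Dark mouse 5 was high in Ackr2 at 27.9 (8.63), Etnk2 at 88.3 (56.4), Mapk11 at 542.7 (361.0), Robo3 at 97.6 (36.2) and Trbc2 at 35.3 (3.58). Dark mouse 1 was high in Gabrq at 509.9 (99.7), Gja1 at 4560 (3896) and the oligodendrocyte and myelin sum at 143912 (61603). Dark mouse 6 was high in Slc1a3 at 17270 (12592) and the upper-layer sum at 24015 (17796) and low in Pdia4 at 744.8 (993.5). Dark mouse 3 was high in Gfpt1 at 1608 (1523) and dark mouse 4 in Igfbp3 at 856.6 (505.6).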

How the results depend on the processing

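The count of 5551 genes between psilocybin-light and dark mice lay between 4315 and 6795 under the other tools, filters, libraries left out and covariates tried, except for the hippocampal covariate (890), and was 3663 at an adjusted p under 0.01 and 905 with a log2 change of at least 1. It ran from 4907 to 5782 with 1 mouse left out. The count against light mice (88) was 193 with DESeq2, 55 with filterByExpr and 58 with only the 12 libraries, and 9 to 155 with 1 mouse left out. That against psilocybin-dark mice (923) was 1688 with only the 12 libraries and 585 to 1048 with 1 mouse left out. That between the libraries labelled Psi-Light and PBS-Dark (66) was 405 with DESeq2, 254 with only the 12 libraries and 3 to 228 with 1 mouse left out. For marker sums, given as the ratio of psilocybin-light to dark means, the mean log2 level of the members turned the upper-layer ratio from 0.979 to 1.57 and left the GABAergic (0.89), striatal (1.01) and meningeal (0.639) ratios short of the threshold. Without dark mice 1 and 6, chosen after seeing the data for these sums, the glutamatergic (1.14), microglia (1.1) and cerebellar (0.51) ratios did not pass, and the deep-layer ratio did (0.696), as it did in CPM (0.766). With 1 mouse left out, calls changed for the glutamatergic (1.29 to 1.57), deep-layer (0.736 to 0.809), microglia (1.14 to 1.24), cerebellar (0.035 to 0.105) and meningeal (0.444 to 0.568) ratios. With the hippocampal covariate, Arl5b (−0.01) and Homer1 (−0.03) changed sign, and without dark mice 2 to 5 so did Cspg4 (0.13) and Ppp1r1b (−0.02). The cause was not tested. DESeq2 kept the call and direction of all 198 genes that the naming rule gave, and fitting only the 12 libraries lost 19 of these calls. No paired analysis was possible because each library carries a number of its own.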

Other observations

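The comparisons of psilocybin-light mice with dark, light and psilocybin-dark mice share the psilocybin-light mice. Of 14464 genes tested, 56 were called in all 3, and 53 of them were lower in each. In 15 of the 56, light mice 17 and 18, which had no drug, lay with the psilocybin-light mice beyond all 16 other mice. In 46 of the 56, light mice 17 and 18 lay on average on the psilocybin-light side of the other light mice. How many of all genes tested show either pattern was not counted. The 15 genes were picked after their values were seen, and Crebbp is among them.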
